A study of Bos taurus with 5 samples.

Results

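A group of 86 transcribed loci was low in leukocytes of both 50 percent crosses of Holstein and Iranian native cattle, while the purebreds and the 75 percent Holstein cross stood higher. The members were taken from 13871 loci whose mean reached 1 FPKM (fragments scaled to transcript length and library size) over 5 libraries. The rule asked that, on the log2(FPKM + 1) scale, the higher of the 50 percent crosses lay at least 1.5-fold below the lower purebred, and that the 75 percent cross did not lie below the lower purebred. All 5 values chose the members, so the differences that the rule used are described here without a test.

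White blood cells were taken from the buffy coat of peripheral blood after lysis of red cells, and each population had 1 library of poly(A) RNA. The purebred libraries carry the labels N and H. The crosses 50CSN and 50CSH both carried 50 percent of each breed. The sire was native for 50CSN and Holstein for 50CSH, and the dam was of the other breed. Holstein ancestry made up 75 percent and native ancestry 25 percent of 75C. N and H are not spelled out in the labels, which give no age, sex or treatment and do not tell how many animals entered a library. With 1 library for each population no difference has a replicate check, and the breed share cannot be told apart from the animal sampled.

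In a cross between breeds, a gene under simple additive control is read at a level between those of the parents. A level below both parents is called transgressive. A cross back towards 1 parental breed replaces part of the other breed's genome. How this replacement bears on the levels of such a cross was not tested. In bulk leukocytes, fewer cells of a type and less RNA per cell cannot be told apart. Loci carry an Ensembl transcript ID, or only a position where they have none. None of the 31460 IDs matched the gene table used here, so leukocyte markers were not read and members appear under their IDs and positions. The sources used here do not give the genome build, and no sequence was used.

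The summed FPKM ran from 733855 in H to 852903 in 50CSN. Read totals were not given, and the most frequent ratio of low values to H put the relative depth between 0.940 in 75C and 1.19 in N. By this estimate the depth of 50CSN was 1.16 times and that of 50CSH 1.02 times that of H. Whether depth bore on the levels of the members was not tested.

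The members ranged from barely detected to very abundant loci. In N they ran from 1.27 to 2732 FPKM with a median of 10.8, in H from 1.20 to 2718 with a median of 12.2, and in 75C from 1.28 to 5428 with a median of 14.4. In 50CSN they ran from a listed 0 to 1224 FPKM with a median of 2.56, and in 50CSH from a listed 0 to 934 with a median of 2.74. Over all 13871 loci the medians were alike, between 10.3 FPKM in 50CSN and 10.9 FPKM in N. Against the mean of the purebreds, the median log2 difference over the members was -1.27 for 50CSN, -1.19 for 50CSH and 0.13 for 75C, beside -0.03, -0.01 and 0.02 over all kept loci. Of the summed FPKM of a library the members together held 1.72 percent for N, 1.62 percent for H, 2.03 percent for 75C, 0.567 percent for 50CSN and 0.503 percent for 50CSH.

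**Figure D1:**
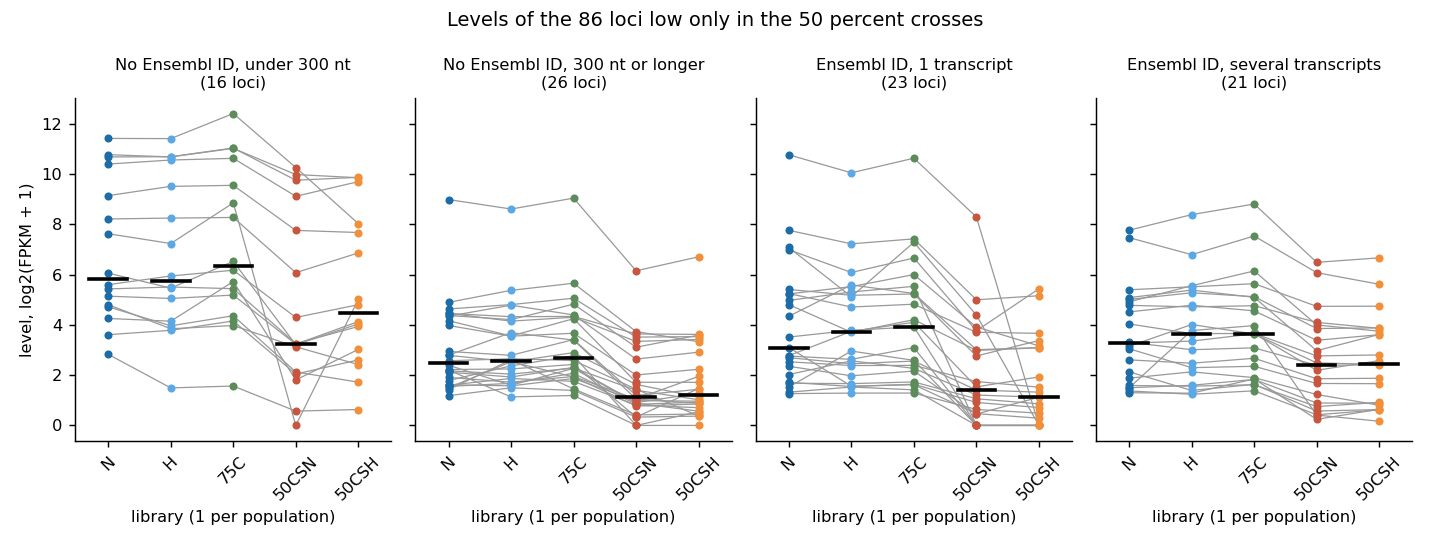
Levels of the 86 members as log2(FPKM + 1) on the vertical axis in the 5 libraries on the horizontal axis, in 4 panels by annotation and number of transcripts. Points are loci, grey lines join the same locus and black bars are medians; the medians of 50CSN and 50CSH lie below those of N, H and 75C in every panel, as the rule requires.

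The rule took 0.62 percent of the kept loci. With its signs turned, asking for loci high only in the 50 percent crosses, it took 14 loci or 0.101 percent. Both 50 percent crosses lay at least 1.5-fold below both purebreds at 578 loci, or 4.17 percent, whatever the level of 75C, and 1.5-fold above both at 1.18 percent. At 492 of the 578, or 3.55 percent of the kept loci, 75C also lay below both purebreds, and the 86 members are the remainder. The split between low and high depended on scaling. Median-of-ratios scaling gave 76 low-only and 18 high-only loci, and quantile normalization 64 and 25. Thus 86, 80.9 and 71.9 percent of the loci were on the low side under the deposited values and these scalings. Of the 64 low-only loci after quantile normalization 61 were members. Within the members the gap between the lower purebred and the higher 50 percent cross reached 2-fold at 35 loci, 3-fold at 11, 4-fold at 5 and 8-fold at 2, on the log2(FPKM + 1) scale. Both 50 percent crosses were listed at 0 at 6 of the 35, 4 of the 11, 3 of the 5 and both of the last, where the size of the gap depends on the added 1. With the values listed at 0 included, pair by pair, 50CSN was at least 2-fold below N at 61 members, H at 56 and 75C at 64, beside 4.04, 3.66 and 2.22 percent of all kept loci. 50CSH was at least 2-fold below N at 56 members, H at 53 and 75C at 64, beside 4.24, 4.17 and 2.54 percent. The rule used these contrasts, so the counts describe the members and support nothing.

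Among members with an Ensembl ID and a value above 0 in all libraries, the widest gap belonged to ENSBTAT00000062893. This single transcript lies in a span of chromosome 5 from 10705353 to 10990081. It stood at 216 FPKM in N, 148 in H and 170 in 75C, and at 31.0 in 50CSN and 34.7 in 50CSH. The 50 percent crosses were close to each other and 4.28-fold or more below the other libraries. Next was ENSBTAT00000049607 near the end of the same chromosome, from 119965722 to 119966366, at 41.5 FPKM in N, 35.2 in H and 36.5 in 75C, against 5.78 in 50CSN and 9.39 in 50CSH. ENSBTAT00000030143, on unplaced sequence, stood at 32.9 FPKM in N, 40.7 in H and 33.2 in 75C, against 6.85 in 50CSN and 11.3 in 50CSH. At these 3 loci 75C lay within the range of the purebreds.

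At ENSBTAT00000062174 (chromosome 15, in a span from 40884322 to 40896189) 75C was the highest library. Its levels were 36.6 FPKM in N, 44.9 in H and 63.0 in 75C, against 14.1 in 50CSN and 7.96 in 50CSH. The same order at the top held for ENSBTAT00000002231 (chromosome 19, from 28362444 to 28367462), the most abundant member with several transcripts, at 217 FPKM in N, 333 in H and 447 in 75C, against 88.7 in 50CSN and 101 in 50CSH. Both loci therefore had 75C highest, then H, then N, and the 50 percent crosses lowest. ENSBTAT00000044050, unplaced and with 3 transcripts, had that order too, at 29.2 FPKM in N, 46.1 in H and 69.7 in 75C, against 15.0 in 50CSN and 12.4 in 50CSH.

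At other members the purebreds stood far apart from each other. ENSBTAT00000042796 (chromosome 19, in a span from 44675645 to 44743660) stood at 1.82 FPKM in N, 12.7 in H and 14.7 in 75C, and at 0.330 in 50CSN and 0.123 in 50CSH. Here 75C stood close to H. The main transcript of ENSBTAT00000042796, with 87.1 percent of the locus, was at 0.579 FPKM in N, 11.6 in H and 13.7 in 75C. This main transcript was listed at 0 in both 50 percent crosses, so their values came from the other transcript. The other transcript was at 1.24 FPKM in N, 1.14 in H and 0.993 in 75C. ENSBTAT00000020299 (chromosome 18, from 48781771 to 48784022) had the opposite order of purebreds, at 7.56 FPKM in N, 1.95 in H and 2.07 in 75C, beside 0.384 in 50CSN and 0.220 in 50CSH. Again 75C was close to H. ENSBTAT00000030641, unplaced, stood at 19.3 FPKM in N, 47.1 in H and 37.0 in 75C, against 7.07 in 50CSN and 7.54 in 50CSH.

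The other 3 of the 12 had purebreds closer to each other. ENSBTAT00000042361 (chromosome 19, from 8514574 to 8518043) stood at 31.3 FPKM in N, 37.7 in H and 33.8 in 75C, against 13.5 in 50CSN and 13.7 in 50CSH, with the 50 percent crosses nearly equal. ENSBTAT00000054504 (chromosome 19, from 54226138 to 54226491) stood at 37.0 FPKM in N, 25.2 in H and 27.3 in 75C, against 12.05 in 50CSN and 11.7 in 50CSH. ENSBTAT00000027963 (chromosome 1, in a span from 43787098 to 43797475) stood at 5.48 FPKM in N, 4.47 in H and 4.90 in 75C, against 1.65 in 50CSN and 1.503 in 50CSH. Among the 12 loci 75C lay above both purebreds at 4 and between them at 8.

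**Figure D2:**
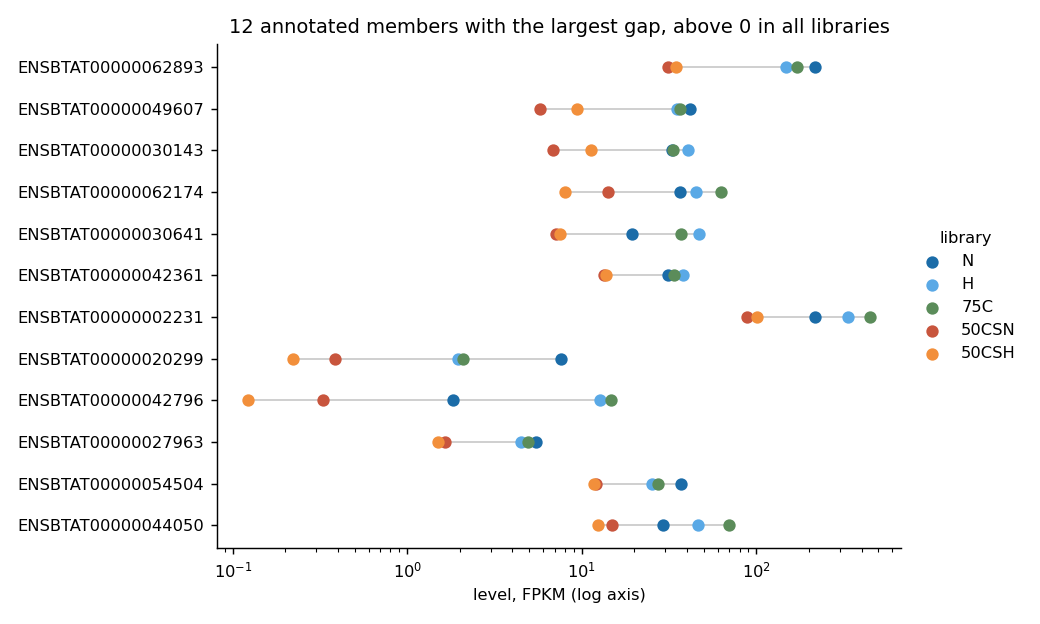
FPKM on a logarithmic horizontal axis for the 12 members with an Ensembl ID, a value above 0 in every library and the widest gap, 1 locus a row, points coloured by library. The 50 percent crosses form the left pair in each row, and the purebreds are widest apart at ENSBTAT00000042796 and ENSBTAT00000020299.

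An exact 0 in such a table can be a failed estimate, so no fold is given for a single locus against a 0. Of the members 10 were listed at 0 in a library, 8 in 50CSN and 8 in 50CSH. The rule does not allow a member to be listed at 0 in N, H or 75C. A 0 in at least 1 library was listed for 225 kept loci, and the rule took 4.44 percent of these. Both 50 percent crosses were listed at 0 at 6 members, each a single transcript. ENSBTAT00000059745 (chromosome 21, in a span from 42746809 to 42845345) stood at 10.4 FPKM in N, 12.8 in H and 14.1 in 75C. ENSBTAT00000041077 (chromosome 19, in a span from 8734352 to 8883076) stood at 5.77 FPKM in N, 5.18 in H and 7.53 in 75C. ENSBTAT00000045616 (chromosome 5, in a span from 38696287 to 39081929) stood at 1.499 FPKM in N, 1.88 in H and 1.67 in 75C. The first of these loci was well above the filter of 1 FPKM, and the last was close to it.

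The most abundant of the 6 was ENSBTAT00000059268 (chromosome 25, in a span from 28665726 to 28718409), at 30.4 FPKM in N, 38.6 in H and 45.2 in 75C. ENSBTAT00000042800 (chromosome 19, from 44652646 to 44652836) stood at 1.88 FPKM in N, 6.77 in H and 5.01 in 75C. Other short loci around it held repeated values: ENSBTAT00000042799 and ENSBTAT00000042801 were both at 4.496 FPKM in H, and ENSBTAT00000042797 and ENSBTAT00000042799 were both at 2.498 FPKM in 75C. The locus without an ID, on chromosome 5 in a span from 120467528 to 120506263, stood at 2.45 FPKM in N, 4.16 in H and 5.84 in 75C. Without the loci listed at 0 in any library the rule took 76 low-only and 9 high-only loci.

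The most abundant members were mostly short loci without an Ensembl ID. The highest was the locus from 14721520 to 14721631 on chromosome 11, at 2732 FPKM in N, 2718 in H and 5428 in 75C, against 1224 in 50CSN and 260 in 50CSH. The purebreds were nearly equal there, 75C stood far above them, and the 50 percent crosses differed widely from each other. On chromosome 7 a locus from 65248759 to 65248896 stood at 1746 FPKM in N, 1640 in H and 2078 in 75C, against 1009 in 50CSN and 923 in 50CSH. On chromosome 9, a locus from 101346606 to 101346744 stood at 1640 FPKM in N, 1650 in H and 2096 in 75C, against 863 in 50CSN and 934 in 50CSH. At both loci 75C was highest and the 50 percent crosses lowest, while the order within the purebreds and within the 50 percent crosses was turned.

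Chromosome 9 held 2 more of them. A locus from 36928702 to 36928826 stood at 1347 FPKM in N, 1505 in H and 1577 in 75C, against 554 in 50CSN and 829 in 50CSH. A locus from 102936 to 103082 stood at 564 FPKM in N, 728 in H and 749 in 75C, against 215 in 50CSN and 203 in 50CSH. No annotated locus was kept within the window of 1 Mb centred on any of the 3 loci of chromosome 9. A longer locus of chromosome 11, from 45366170 to 45366499, stood at 505 FPKM in N, 389 in H and 526 in 75C, against 70.0 in 50CSN and 103 in 50CSH. The only loci with an Ensembl ID among the 8 most abundant members were ENSBTAT00000002231 and ENSBTAT00000011795.

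Members differed from the other kept loci in features that the rule did not use. Of the 86 members 42, or 48.8 percent, had no Ensembl ID, beside 15.9 percent of all kept loci. A single transcript made up 61 members, or 70.9 percent, beside 27.0 percent of all. The median span was 2938 nt for members and 26934 nt for all kept loci, and 15 members, or 17.4 percent, lay on unplaced sequence beside 6.45 percent of all. The 492 loci that were low in all 3 crosses were nearer to the whole set, with 18.9 percent without an ID, 30.5 percent with a single transcript and 6.91 percent unplaced. The 14 high-only loci were near the members in these shares, with 42.9 percent without an ID, 71.4 percent with a single transcript and 21.4 percent unplaced. These are descriptions of lists chosen by level and carry no test.

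Loci without an Ensembl ID and under 300 nt were the class from which the rule took the largest share. It took 16 of 204, or 7.84 percent, as low-only and none as high-only. Of longer loci without an ID it took 26 of 2001, or 1.30 percent, of loci with an ID and a single transcript 23 of 2052, or 1.12 percent, and of loci with an ID and several transcripts 21 of 9614, or 0.218 percent. The part of the short loci in the summed FPKM of kept loci differed between libraries. It was 15.6 percent in N, 14.3 in H and 18.4 in 75C, against 12.3 in 50CSN and 13.2 in 50CSH. These sums include the 16 members, which the rule chose as low in the 50 percent crosses. Part of the difference was therefore fixed by the rule. The median log2 difference from the purebred mean over this class was small in the 50 percent crosses. It was -0.06 for 50CSN, -0.01 for 50CSH and 0.14 for 75C, beside -0.07, -0.05 and 0.02 for longer loci without an ID. Whether the difference in the sums played a part in the membership of these 16 loci was not tested. Of the FPKM that all members summed to, the 16 members accounted for 8797 of 12632 in N and 8932 of 11868 in H. In 75C they accounted for 13041 of 17084, in 50CSN for 3992 of 4840 and in 50CSH for 3388 of 3969. Without this class, a choice made after the data were seen, 70 low-only and 14 high-only loci remained.

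**Figure D3:**
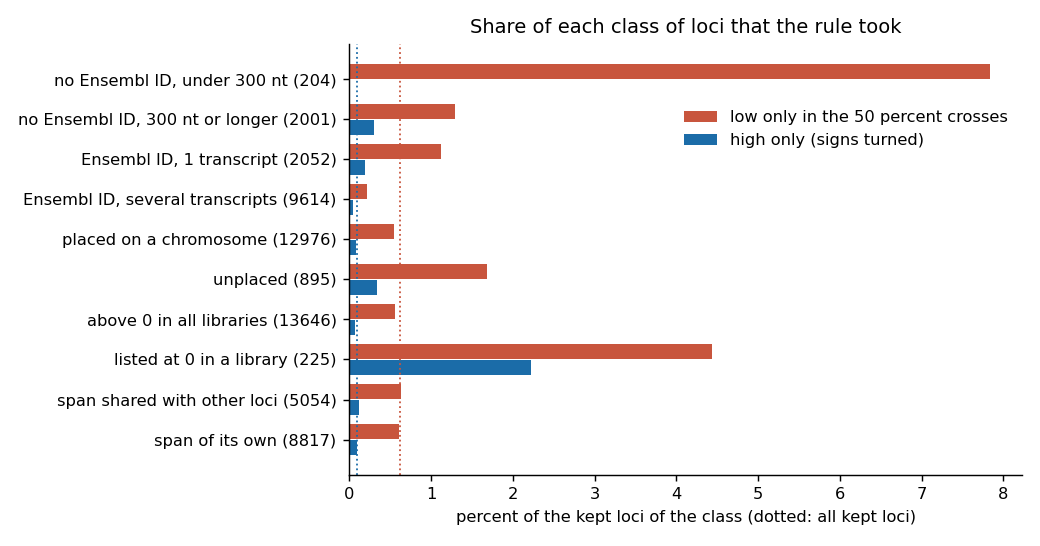
Percent of the kept loci of each class that were low only (red) or high only (blue) in the 50 percent crosses, with the size of the class in parentheses and the percent of all kept loci as dotted lines. The classes overlap, the red bar is longer than the blue bar in each, and the longest bar is the 7.84 percent of short loci without an Ensembl ID.

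Of the 16 short members 11 were not among the most abundant loci, and these lay on 7 chromosomes and 4 unplaced sequences. Their levels ran from 1.81 to 461 FPKM in N, H and 75C and from a listed 0 to 115 FPKM in the 50 percent crosses. On chromosome 26 a locus from 25331621 to 25331749 stood at 196 FPKM in N, 150 in H, 461 in 75C and 31.3 in 50CSH, and was listed at 0 in 50CSN. On chromosome 3 a locus from 26456972 to 26457143 stood at 65.5 FPKM in N, 43.1 in H and 91.1 in 75C, against 8.25 in 50CSN and 15.4 in 50CSH. At both of these 75C was the highest library. On chromosome 27 a locus from 34572545 to 34572704 stood at 42.1 FPKM in N, 44.4 in H and 42.4 in 75C, against 8.55 in 50CSN and 14.3 in 50CSH, with the first 3 libraries nearly equal.

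Members with several transcripts numbered 25 and held 104 transcripts, of which 36 had a mean of at least 1 FPKM. At 18 of the 36 the gap between the lower purebred and the higher 50 percent cross reached 1.5-fold, and at 31 both 50 percent crosses lay below both purebreds. Over all 26826 transcripts at that level 6.55 percent reached 1.5-fold. The sum over a locus chose the member, so its transcripts are not independent of the rule. In 16 of the 25 loci the most abundant transcript reached the 1.5-fold gap by itself. Nothing was asked of 75C in these counts or in the 6.55 percent. At some of the 18 transcripts 75C lay below both purebreds, so these were not low only in the 50 percent crosses. At ENSBTAT00000002231 the transcript with the ID ENSBTAT00000060500 held 98.9 percent of the locus, at 214 FPKM in N, 330 in H and 444 in 75C, against 86.3 in 50CSN and 98.5 in 50CSH. At ENSBTAT00000030143 both transcripts showed the gap, the smaller at 12.3 FPKM in N, 13.8 in H and 11.5 in 75C, against 1.83 in 50CSN and 2.22 in 50CSH. In that smaller transcript 75C lay below both purebreds.

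Other loci with several transcripts were less uniform. At ENSBTAT00000012489 (chromosome 29, from 42829660 to 42837630) the main transcript, ENSBTAT00000051159, was at 157 FPKM in N, 94.7 in H and 166 in 75C, against 46.1 in 50CSN and 28.6 in 50CSH. The transcript ENSBTAT00000046546 of that locus had the opposite pattern, at 12.1 FPKM in N, 8.28 in H and 12.7 in 75C, against 16.8 in 50CSN and 13.9 in 50CSH. It was the only transcript of the 36 above both purebreds in both 50 percent crosses. ENSBTAT00000001593 (chromosome 19, from 45590657 to 45703119) has 8 transcripts under 5 Ensembl IDs and was at 41.1 FPKM in N, 44.7 in H and 48.8 in 75C, against 25.7 in 50CSN and 25.8 in 50CSH. Its transcript of ENSBTAT00000010741 reached the gap, at 16.8 FPKM in N, 20.9 in H and 26.2 in 75C, against 8.68 in 50CSN and 8.62 in 50CSH.

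Of the other members with the most transcripts, ENSBTAT00000018351 (chromosome 16, in a span from 48750477 to 48770361) has 11 and was at 15.4 FPKM in N, 11.6 in H and 11.6 in 75C, against 5.80 in 50CSN and 5.98 in 50CSH. ENSBTAT00000026157, unplaced and with 10 transcripts, was at 8.93 FPKM in N, 7.06 in H and 7.49 in 75C, against 4.25 in 50CSN and 4.32 in 50CSH. At both loci the 50 percent crosses were nearly equal and N was highest. ENSBTAT00000007682, unplaced and with 8 transcripts, was at 7.86 FPKM in N, 15.2 in H and 11.4 in 75C, against 4.61 in 50CSN and 4.37 in 50CSH. None of its transcripts reached the gap of 1.5-fold by itself. The sums at ENSBTAT00000024508 on chromosome 10 ran from 4.56 to 5.37 FPKM in N, H and 75C and from 2.62 to 2.67 FPKM in the 50 percent crosses. At ENSBTAT00000013664 on chromosome X they ran from 2.68 to 3.38 FPKM and from 0.745 to 1.35 FPKM. The most abundant transcript of that locus was at 1.85 FPKM in N, 3.38 in H and 0.000274 in 75C. It was therefore not low only in the 50 percent crosses.

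Fragments at a locus that shares its span with others can be divided between them by the authors' model, so the sum over the span was read beside the member. Of the members 32 lay in such a span, 37.2 percent beside 36.4 percent of all kept loci, no pair of them in the same span, with 2 to 15 loci a span. The span sum had a gap of at least 1.5-fold at 12 of the 32, a smaller gap at 11 and none at 9. These counts set no bound on 75C. Among the 12, 75C lay below both purebreds in the span sums of ENSBTAT00000015433, ENSBTAT00000013664, ENSBTAT00000016935 and ENSBTAT00000024508. It did so too at a locus without an ID on chromosome 29, in a span from 48124127 to 48135575. At ENSBTAT00000024508 the sum was 48.7 FPKM in N, 42.2 in H and 39.2 in 75C. In the span of ENSBTAT00000059268 the sum was 97.1 FPKM in N, 102 in H and 102 in 75C, against 45.6 in 50CSN and 47.5 in 50CSH. In the span of ENSBTAT00000062893 it was 316 FPKM in N, 244 in H and 263 in 75C, against 111 in 50CSN and 112 in 50CSH. In the span of ENSBTAT00000059745 it was 20.1 FPKM in N, 18.7 in H and 19.5 in 75C, against 7.34 in 50CSN and 7.08 in 50CSH. These sums include the member. Without it, the rest of the span of ENSBTAT00000059268 was at 66.7 FPKM in N, 63.4 in H and 56.7 in 75C, against 45.6 in 50CSN and 47.5 in 50CSH. The rest of the span of ENSBTAT00000062893 ran from 92.2 to 99.7 FPKM in N, H and 75C and from 77.6 to 79.6 FPKM in the 50 percent crosses. At ENSBTAT00000059745 the rest was not low in the 50 percent crosses, at 7.34 FPKM in 50CSN and 7.08 in 50CSH beside 9.67 in N, 5.92 in H and 5.38 in 75C. Of the 32 spans the rest had a gap of at least 1.5-fold at 1, that of ENSBTAT00000024508, so at the other 11 of the 12 the gap of the sum reached 1.5-fold only with the member.

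The pattern did not extend to the span at some prominent members. The sum over the 14 loci around ENSBTAT00000041077 was 201 FPKM in N, 171 in H and 361 in 75C, against 437 in 50CSN and 467 in 50CSH, so the span was highest where the member was listed at 0. The member held 1.13 percent of that sum. ENSBTAT00000011795 (chromosome 23, in a span from 28472237 to 28685278) stood at 1739 FPKM in N, 1057 in H, 1583 in 75C and 312 in 50CSN, with a listed 0 in 50CSH. The sum over the 15 loci of its span was 8814 FPKM in N, 10976 in H and 7923 in 75C, against 9542 in 50CSN and 7554 in 50CSH, which does not separate the 50 percent crosses. Another locus of that span listed under the same Ensembl ID, no member, was not low in the 50 percent crosses. It was at 537 FPKM in N, 149 in H and 325 in 75C, beside 407 in 50CSN and 442 in 50CSH. At ENSBTAT00000042796 the span sum was 30.1 FPKM in N, 37.5 in H and 43.9 in 75C, against 37.3 in 50CSN and 34.7 in 50CSH. With loci in a span of their own only, a choice made after the data were seen, 54 low-only and 8 high-only loci remained.

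**Figure D4:**
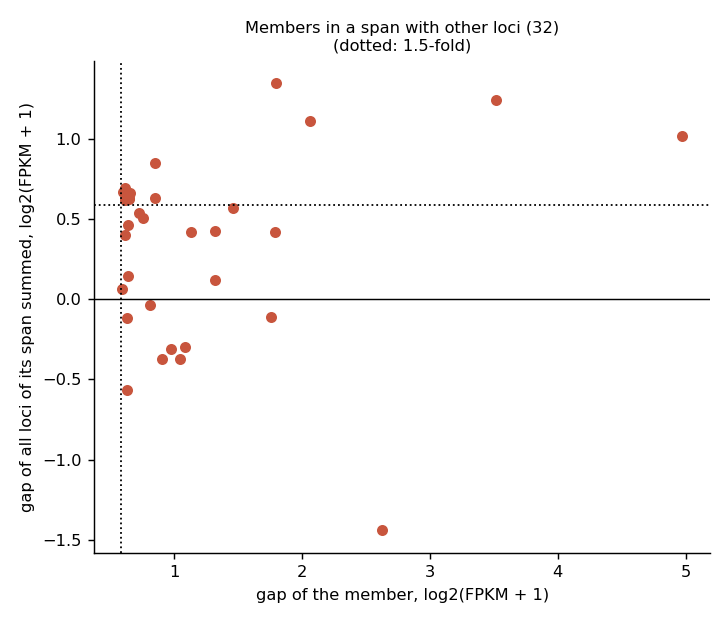
Gap between the lower purebred and the higher 50 percent cross in log2(FPKM + 1) for the 32 members that share a span with other loci, on the horizontal axis for the member and on the vertical axis for the sum of its span. Points above the horizontal dotted line (12) have a gap of 1.5-fold in the sum, which includes the member, and the lowest point is ENSBTAT00000041077.

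The members were spread over 26 chromosomes and 14 unplaced sequences. Chromosome 23, which in cattle carries the major histocompatibility complex, held 8 members among 447 kept loci, or 1.79 percent, and chromosome 19 held 8 among 770, or 1.04 percent. Chromosome 5 held 7 among 746, or 0.938 percent, and unplaced sequence 15 among 895, or 1.68 percent, beside 0.62 percent overall. Chromosomes 4, 14, 20 and 28 held none among 430, 279, 186 and 168 kept loci. On chromosome 23, 5 of the 8 members lay between 28472237 and 32009658, and the files do not say whether they belong to the complex. ENSBTAT00000022907 (from 28925971 to 28954748) stood at 7.28 FPKM in N, 3.92 in H and 4.11 in 75C, against 2.18 in 50CSN and 2.16 in 50CSH. The remaining 3 of these 5, ENSBTAT00000009298, ENSBTAT00000057026 and ENSBTAT00000044974, were between 1.93 and 4.78 FPKM in N, H and 75C and between 0.638 and 2.35 FPKM in the 50 percent crosses.

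**Figure D5:**
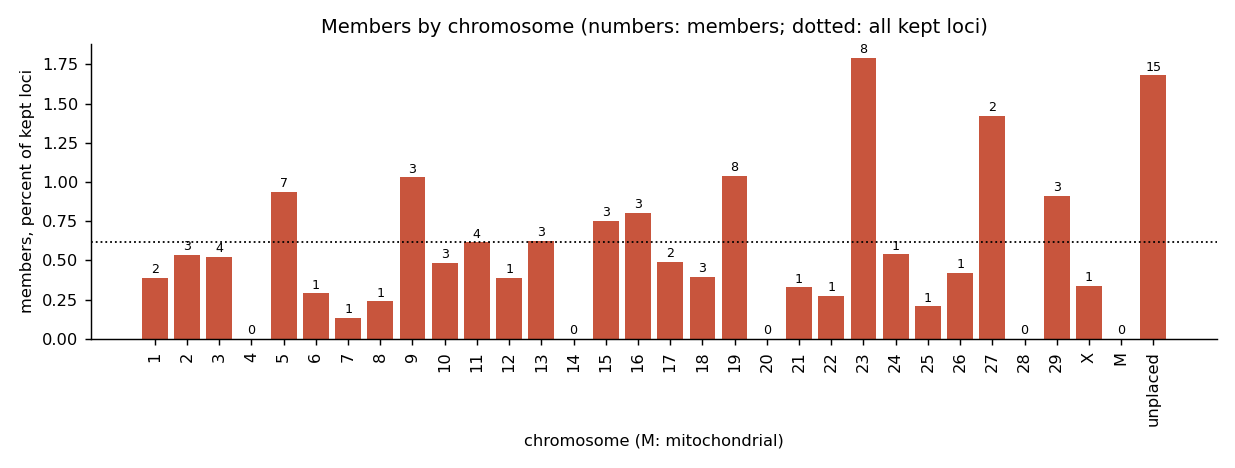
Members as a percent of the kept loci of each chromosome, with the number of members above each bar and the percent over all kept loci as a dotted line. Chromosome 23 (1.79 percent) and unplaced sequence (1.68 percent) have the highest bars, and 4 numbered chromosomes and the mitochondrial chromosome have none.

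Members were counted in windows of 1 Mb. Of 80 windows that held a member, 75 held 1, 4 held 2 and 1 held 3. No such count was made for equally few other kept loci. These numbers therefore do not tell whether members lay further apart than other loci. The window with 3, between 8 and 9 Mb of chromosome 19, held ENSBTAT00000041077 and a pair close to each other. ENSBTAT00000015433 (in a span from 8461888 to 8513481) stood at 4.10 FPKM in N, 2.93 in H and 3.47 in 75C, against 0.371 in 50CSN and 1.17 in 50CSH, and ENSBTAT00000042361 lies 1093 nt from that span. A second locus of that span, listed under the same Ensembl ID and no member, was at 11.4 FPKM in N, 10.4 in H and 9.32 in 75C, against 6.15 in 50CSN and 7.05 in 50CSH. Directly beyond, from 8527919 to 8603824, ENSBTAT00000026797 was at 2.70 FPKM in N, 1.82 in H and 1.41 in 75C, against 0.901 in 50CSN and 1.03 in 50CSH. All of these loci were low in both 50 percent crosses. ENSBTAT00000004389 of the latter span was level, at 50.8 FPKM in N, 52.0 in H and 52.4 in 75C, against 50.2 in 50CSN and 53.5 in 50CSH.

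The windows with 2 members tie, so all are given. On chromosome 16, between 48 and 49 Mb, they were ENSBTAT00000018351 and ENSBTAT00000014227, the latter at 1.40 FPKM in N, 1.44 in H and 1.44 in 75C, against 0.554 in 50CSN and 0.402 in 50CSH. Another locus listed under ENSBTAT00000014227, no member, was at 25.2 FPKM in N, 23.3 in H and 21.6 in 75C. It was at 21.8 FPKM in 50CSN and 22.2 in 50CSH. The member held 0.0327 percent of the sum over its span. That sum was 2756 FPKM in N, 2603 in H and 3260 in 75C, against 3852 in 50CSN and 3546 in 50CSH. On chromosome 19, between 44 and 45 Mb, the members were ENSBTAT00000042800 and ENSBTAT00000042796, and on chromosome 23, between 28 and 29 Mb, ENSBTAT00000011795 and ENSBTAT00000022907. The unplaced sequence Un.004.56 held ENSBTAT00000023837, at 8.68 FPKM in N, 9.22 in H and 11.5 in 75C, against 3.58 in 50CSN and 4.97 in 50CSH. It also held a locus without an ID, from 414121 to 435940, at 21.0 FPKM in N, 16.7 in H and 18.8 in 75C, against 9.13 in 50CSN and 9.70 in 50CSH. Over the 14 other kept loci of that sequence the median log2 difference of the 50 percent crosses from the purebreds was -0.22 and that of 75C was 0.10. In the other 4 windows that median lay between -0.16 and -0.01 for the 50 percent crosses.

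Loci beside the members were read for the same difference. For each of the 71 members on a chromosome the nearest kept locus outside its span that was no member was taken, at a median distance of 3384 nt. The median log2 difference of the 50 percent crosses from the purebreds was -0.09 over these neighbours and -0.02 over all 12976 kept loci on chromosomes. Both 50 percent crosses lay below both purebreds at 25 of the 71 neighbours, or 35.2 percent, beside 32.6 percent of all loci on chromosomes. The gap reached 1.5-fold at 7 neighbours, or 9.86 percent, beside 4.08 percent. The widest was at ENSBTAT00000045499 on chromosome 6, which lies 6912 nt from a short member and was at 53.7 FPKM in N, 57.5 in H and 46.5 in 75C, against 8.33 in 50CSN and 4.79 in 50CSH. Its member neighbour, from 93920200 to 93920372, was at 47.5 FPKM in N, 60.6 in H and 71.1 in 75C, against 18.6 in 50CSN and 26.9 in 50CSH. The 2 loci differed in 75C, which lay below both purebreds at the first and above them at the second. Members were left out of the neighbours, so a neighbour with a 1.5-fold gap could only have 75C below both purebreds. The 4.08 percent still counts the members.

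Members lay in denser surroundings than kept loci in general. Over a 1 Mb stretch around each locus, the locus itself not counted, the median number of annotated kept loci was 13 around members and 8 around all kept loci on chromosomes. It was 11 around the loci low in all 3 crosses and 10 around the high-only loci. Denser surroundings were therefore not particular to the members. In 5 equal groups of loci by the number of annotated kept loci nearby, from sparse to dense, the rule took 0.308, 0.270, 0.578, 0.963 and 0.617 percent of the loci. Whatever the level of 75C, both 50 percent crosses lay at least 1.5-fold below both purebreds at 2.7, 2.93, 4.01, 5.32 and 5.43 percent. The median log2 difference of the 50 percent crosses from the purebreds over all loci went from 0.06 in the sparsest to -0.15 in the densest group, and that of 75C from 0.06 to -0.03. After removal of this trend from each library, a step chosen after the data were seen, the rule took 58 low-only and 15 high-only loci on chromosomes, beside 71 and 11 before it, and 55 of the 58 were members.

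The rule sets no upper bound on 75C and none on the spread within the purebreds or within the 50 percent crosses. The 75C library lay above both purebreds at 45 members, or 52.3 percent, beside 39.8 percent of all kept loci and 60.1 percent of the 9185 loci at which 75C was not below both purebreds. It lay at least 1.5-fold above both at 4 members, or 4.65 percent, beside 2.4 percent of all and 3.63 percent of the 9185. It lay at least 2-fold above both at 2, or 2.33 percent, beside 0.714 percent of all and 1.08 percent of the 9185. One of the 2 is the locus of chromosome 26 given above, and the other is an unplaced locus without an ID at 18.1 FPKM in N, 16.7 in H and 51.8 in 75C, against 2.51 in 50CSN and 7.13 in 50CSH. At the remaining 41 members, or 47.7 percent, 75C lay between the purebreds, beside 26.4 percent of all and 39.9 percent of the 9185. By the rule no member had 75C below both, beside 33.8 percent of all. It was nearer to H than to N at 45 of 86 members, or 52.3 percent, beside 53.5 percent of all kept loci.

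H was at least 2-fold above N at 5 members, beside 1.46 percent of all kept loci, and at least 2-fold below N at 5, beside 1.86 percent. The widest difference below N was at ENSBTAT00000061858 (chromosome 10, in a span from 13105679 to 13121342), at 134 FPKM in N, 33.8 in H, 155 in 75C and 20.0 in 50CSN, and listed at 0 in 50CSH. H was above N at 45.3 percent of the members and 46.5 percent of all loci, so neither purebred was the lower one as a rule. The 50 percent crosses were at least 2-fold apart at 8 members, beside 2.82 percent of all loci, 50CSH being higher at 4 and lower at 4. At 3 of the 8 one of the crosses was listed at 0, and at the other 5 both were above 0. ENSBTAT00000060471 (chromosome 17, from 65896286 to 65896426) stood at 126 FPKM in N, 66.8 in H and 100.1 in 75C, against 12.6 in 50CSN and 42.3 in 50CSH. The median of the signed log2 difference of 50CSH from 50CSN was 0.02 over the members. Differences in opposite directions cancel in this median, so it does not measure how close the crosses were. 50CSH was above 50CSN at 46 members, beside 52.9 percent of all loci, below it at 34, beside 46.7 percent, and equal to it at the 6 listed at 0 in both, beside 0.397 percent.

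The authors tested transcripts in each pair of populations, and the comparisons of the 50 percent crosses with the other libraries used the values that chose the members. Between H and 50CSN the authors' deposited table calls 0.157 percent of 36924 tested transcripts, and 1 of 121 tested transcripts of members. In the authors' deposited table all calls at members in pairs of populations, 5 in number, were for 1 transcript, ENSBTAT00000042361. Over all tested transcripts the authors' deposited table calls 0.144 percent between N and 50CSN, 0.151 between N and 50CSH, 0.176 between H and 50CSH, 0.0849 for 50CSN with 75C and 0.0574 for 50CSH with 75C. ENSBTAT00000042361 was called lower in 50CSN than in N, H and 75C and lower in 50CSH than in H and 75C, with log2 fold changes between -1.22 and -1.49 in the authors' deposited table. The q-value of each of these calls in the authors' deposited table was 0.043, and their p-value of 5e-05 is the smallest in that table. In the authors' deposited table no transcript of a member was called between H and N, between the 50 percent crosses, or between 75C and a purebred, where 0.0796, 0.0477 and, for H, 0.0758 and, for N, 0.183 percent of tested transcripts were called. In the authors' deposited table of pooled crossbreds against pooled purebreds, 2 transcripts of members were called, beside 0.936 percent of all tested. These were ENSBTAT00000042361, with a log2 fold change of -0.80 in the authors' deposited table, and a transcript of ENSBTAT00000022907, with -0.98 in the same authors' deposited table.

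The edges of the rule cut through a continuous range of values. Just inside the gap of 1.5-fold, or 0.58 on the log2 scale, the closest members had gaps of 0.59, 0.59 and 0.60, and the closest loci outside it had gaps of 0.58, 0.58 and 0.58. One of those outside was short and abundant, from 112694293 to 112694426 on chromosome 5, with 3904 FPKM in N, 4770 in H and 6268 in 75C, against 2607 in 50CSN and 2025 in 50CSH. For 75C, the closest members inside lay 0.01 above the lower purebred on the log2 scale, and the closest locus outside, ENSBTAT00000032345, was at 12.5 FPKM in both H and 75C. At the filter of 1 FPKM the lowest member had a mean of 1.01 FPKM and the highest locus left out 0.932 FPKM.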

How the data were processed

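The membership rule and the lists of features were chosen with earlier results of these data known. The tools named are TopHat2 2.0.9 and Cufflinks 2.2.1.0, per the submitters' processing notes, and the build, annotation and settings were not stated in what was used here. The authors deposited FPKM values for 72812 transcripts in a table of 10 pairs of populations, in which a library's value was identical in every pair. Per the file headers, the deposited tables also hold for each comparison a log2 fold change with its p-value and q-value. The deposited pooled FPKM values were not used. FPKM divides fragments between the transcripts of a locus by a model, so depth per value is unknown and no counting interval is given.

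FPKM values were summed per locus, filtered at a mean of 1, and compared as log2(FPKM + 1), which understates differences at low loci. Deposited starts count from 0 and were raised by 1. With 1 library for each population there is no test and no SD. The rule was checked on simulated data. Named loci were the 12 widest gaps with an Ensembl ID and no listed 0, the 8 most abundant members, the members listed at 0 in both 50 percent crosses, the 6 with most transcripts, those in windows of 1 Mb with most members, where ties took 5 windows in place of 3, and those at the edges of the rule. Other loci were named after their values were seen. The 15 lists of markers and pathways fixed by symbol could not be matched and were not read. Tools were Python 3.11.15, pandas 2.3.3, numpy 2.4.6, statsmodels 0.14.6 and matplotlib 3.10.9.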

Additional observations from a re-analysis of the deposited data

How the results depend on the processing

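The count of 86 low-only and 14 high-only loci depends on the settings, and low-only loci outnumbered high-only loci under each setting run. The counts of low-only and high-only loci were 146 and 26 with log2(FPKM + 0.1), 51 and 6 with a mean of at least 5 FPKM, 250 and 81 with a gap of 0.32 on the log2 scale, 35 and 3 with a gap of 2-fold, 461 and 205 for single transcripts, 44 and 8 with an Ensembl ID, and 21 and 4 with an Ensembl ID, several transcripts and values above 0. They were 54 and 8 in spans of their own. High-only loci numbered 25 after quantile normalization and 9 among loci above 0 in all libraries. Leaving out 1 library from the rule gave 88 to 578 low-only loci, the highest without 75C, and 20 to 164 high-only loci. All 86 members were among the 146 and the 250, while 69 were taken without N and 62 without H. With that smaller gap the medians over the members were -0.75 for 50CSN and -0.71 for 50CSH, and with 2-fold -2.08, -1.87 and, for 75C, 0.27. The median for 75C was 0.23 both without the trend with annotated neighbours and in spans of their own. The 41 named members kept their direction under each of the 3 settings run on them, and 14 of them moved by over 1.5 times, all with a pseudocount of 0.1. No paired analysis was possible because each population has 1 library. Depth behind a value is unknown, so no counting error could be set beside differences at loci near 1 FPKM. The settings on spans, trend and several transcripts were chosen after the data were seen.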
